A study of Mus musculus with 2 samples.

Results

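The 6 genes of the CCR4, CCR7 and CCR8 chemokine axes were followed through the immune cells of mouse tumours. They are the ligand genes Ccl17 and Ccl22 with their receptor gene Ccr4, the ligand gene Ccl1 with its receptor gene Ccr8, and the receptor gene Ccr7. They were taken by symbol and not by a cut-off on their values, but with earlier results of these data known. They are 6 of the 27998 genes in the deposited tables. At least 1 molecule of a member was counted in 1146 of 4574 retained CD94-KO cells and in 1183 of 4388 retained WT cells. The CD94-KO library came from CD94-deficient mice and the WT library from mice without that deficiency. CD94, encoded by Klrd1, is a lectin-like receptor chain of NK cells and some T cells. All animals were C57BL/6J mice aged 6 to 8 weeks that carried a subcutaneous tumour, and each library was made from 5 tumour-bearing mice. Living CD45+ 7AAD- cells were sorted, with a purity and viability over 90%, and sequenced by the 10x Chromium method, which counts 1 unique molecular identifier (UMI) for each captured transcript near its 3′ end. The tumour line is not given in the sources used here.

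CCL17 and CCL22 are made chiefly by dendritic cells (DCs) and bind CCR4, a receptor that draws regulatory T cells, type 2 helper T cells and skin-homing T cells. CCL1 is secreted by activated T cells and binds CCR8, which is carried by regulatory T cells in tumours and by type 2 helper T cells. CCR7 answers to CCL19 and CCL21 of lymphatic vessels and lymph nodes, and it guides mature DCs and naive and central memory T cells there.

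The promoter sequences of Ccl17 and Ccl22 are shown because these ligand genes are neighbours on 1 chromosome and yet were spread differently over the DC gates described here. In the GRCm38 build with GENCODE annotation, Ccl22 (ENSMUSG00000031779) lies at chr8:94745590-94751699 and Ccl17 (ENSMUSG00000031780) at chr8:94810453-94812036, both on the plus strand with 3 exons and 58753 bases apart. The stretches before each start come from RefSeq, build GRCm38.p6, plus strand. The Ccl17 stretch is chr8:94810203-94810452. The Ccl22 stretch, chr8:94745434-94745589, ends where the GENCODE transcript begins. Capitals mark matches to the motifs searched on both strands, TTCNNNNGAA (a STAT6-like palindrome) and GGGNNNNNCC or its complement GGNNNNNCCC (NF-kB-like).
Ccl17 promoter: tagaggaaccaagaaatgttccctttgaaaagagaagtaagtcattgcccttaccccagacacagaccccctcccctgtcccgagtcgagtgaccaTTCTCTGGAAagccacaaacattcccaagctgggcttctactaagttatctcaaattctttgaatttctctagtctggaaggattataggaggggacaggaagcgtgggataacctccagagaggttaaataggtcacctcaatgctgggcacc
Ccl22 promoter: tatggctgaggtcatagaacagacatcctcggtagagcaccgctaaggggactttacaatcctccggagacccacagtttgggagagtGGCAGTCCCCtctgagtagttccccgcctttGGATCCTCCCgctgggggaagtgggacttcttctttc
Ccl17 held 1 STAT6-like match, TTCTCTGGAA, 154 bases before its start, and 0 NF-kB-like matches. Ccl22 held 2 NF-kB-like matches, GGCAGTCCCC and GGATCCTCCC, 162 and 131 bases before its RefSeq start, and 0 STAT6-like matches. The STAT6-like motif was present in 1923 of 32851 RefSeq promoters (5.85%) and the NF-kB-like motif in 15046 (45.8%), counted over the 250 bases before the start, so the NF-kB-like letters are common. A match describes letters in this window and is not a binding site.

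The other members lie elsewhere. Ccr4 (ENSMUSG00000047898, chr9:114490316-114496562, minus strand) and Ccr8 (ENSMUSG00000042262, chr9:120092114-120094906, plus strand) each have 2 exons. Ccl1 (ENSMUSG00000020702, chr11:82176657-82179812) and Ccr7 (ENSMUSG00000037944, chr11:99144196-99155077), both on the minus strand, each have 3. No other annotated gene overlaps the span of these transcripts. The annotated 3′ untranslated region of Ccr8 is 24 bases long, the shortest of the 6, against 1813 bases in Ccl22 and 1597 in Ccr4; how this affects capture of Ccr8 by a 3′ assay was not tested.

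The deposited CD94-KO table held 46107433 UMIs in 5175 barcodes, against 40261366 in 5358 in WT. After removal of cells with few molecules or many mitochondrial ones and of the highest doublet scores, the median was 7799 UMIs per CD94-KO cell and 4768.5 per WT cell. The libraries shared 8 barcode sequences, 4 of them among retained cells. Klrd1 in the NK gate was at 332.8 CPM (counts scaled to a gate total of 1e+06) in CD94-KO and 685.7 in WT, with a UMI in 75.5% and 93.1% of the cells; since the deleted stretch is not named, counts from the 3′ end may leave the genotype unchecked. With 1 library for each genotype there is no replicate check and no test. Every interval below is an exact 95% interval (Poisson for CPM, Clopper-Pearson for shares, conditional binomial for ratios) and covers counting error only, so differences between mice cannot be told apart from differences between genotypes. UMIs are distributed unevenly between cells, and a summed level can rest on a few of them; where it does, the cell counts stand beside it.

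Cells were gated on raw UMIs of marker genes that include no member. The mature DC gate needed Fscn1, at least 2 of 6 other maturation genes (Cacnb3, Il4i1, Socs2, Cd200, Apol7c, Nudt17) and at least 5 UMIs of MHC class II genes, without CD3 transcripts. It took 81 CD94-KO and 46 WT cells, 1.77% and 1.05% of each library. Of these, 6 in each library went against the name: they had 45 to 200 and 47 to 319 UMIs of 6 fibroblast marker genes such as Sparc and Col3a1, against at most 2 in the other cells, and were the largest cells of the gate, with 44184 to 106347 and 37515 to 109896 UMIs. Ptprc, which encodes CD45, was counted in 1 of the 6 in each library, and Ccr7 and Ccl17 in 0. They held 30.8% of the gate's UMIs in CD94-KO and 46.6% in WT, so each mature DC level is given with and without cells of 5 or more such UMIs, called fibroblast-rich here, a choice made after seeing the data. The 75 CD94-KO and 40 WT cells that remained had Relb at 560 and 531 CPM and Cd40 at 284 and 314 CPM, mature DC genes not used for the gate. The cDC2 gate, on Cd209a, Flt3, Mgl2, Clec10a and Kmo, took 224 and 140 cells (4.90% and 3.19%), with Cd74 at 13105 and 14442 CPM. The Foxp3+ T gate, called Treg here, took 47 and 86 cells (1.03% and 1.96%), with Ctla4 at 934 and 733 CPM and Ikzf2 at 863 and 801 CPM. The CD4 conventional T gate (Cd4 without Foxp3 or Cd8) took 69 and 97 cells, and the CD8 T gate 69 and 110. Of the T-gate cells, 102 of 620 CD94-KO cells (16.5%) and 144 of 986 WT cells (14.6%) also carried 20 or more MHC class II UMIs.

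**Figure D1:**
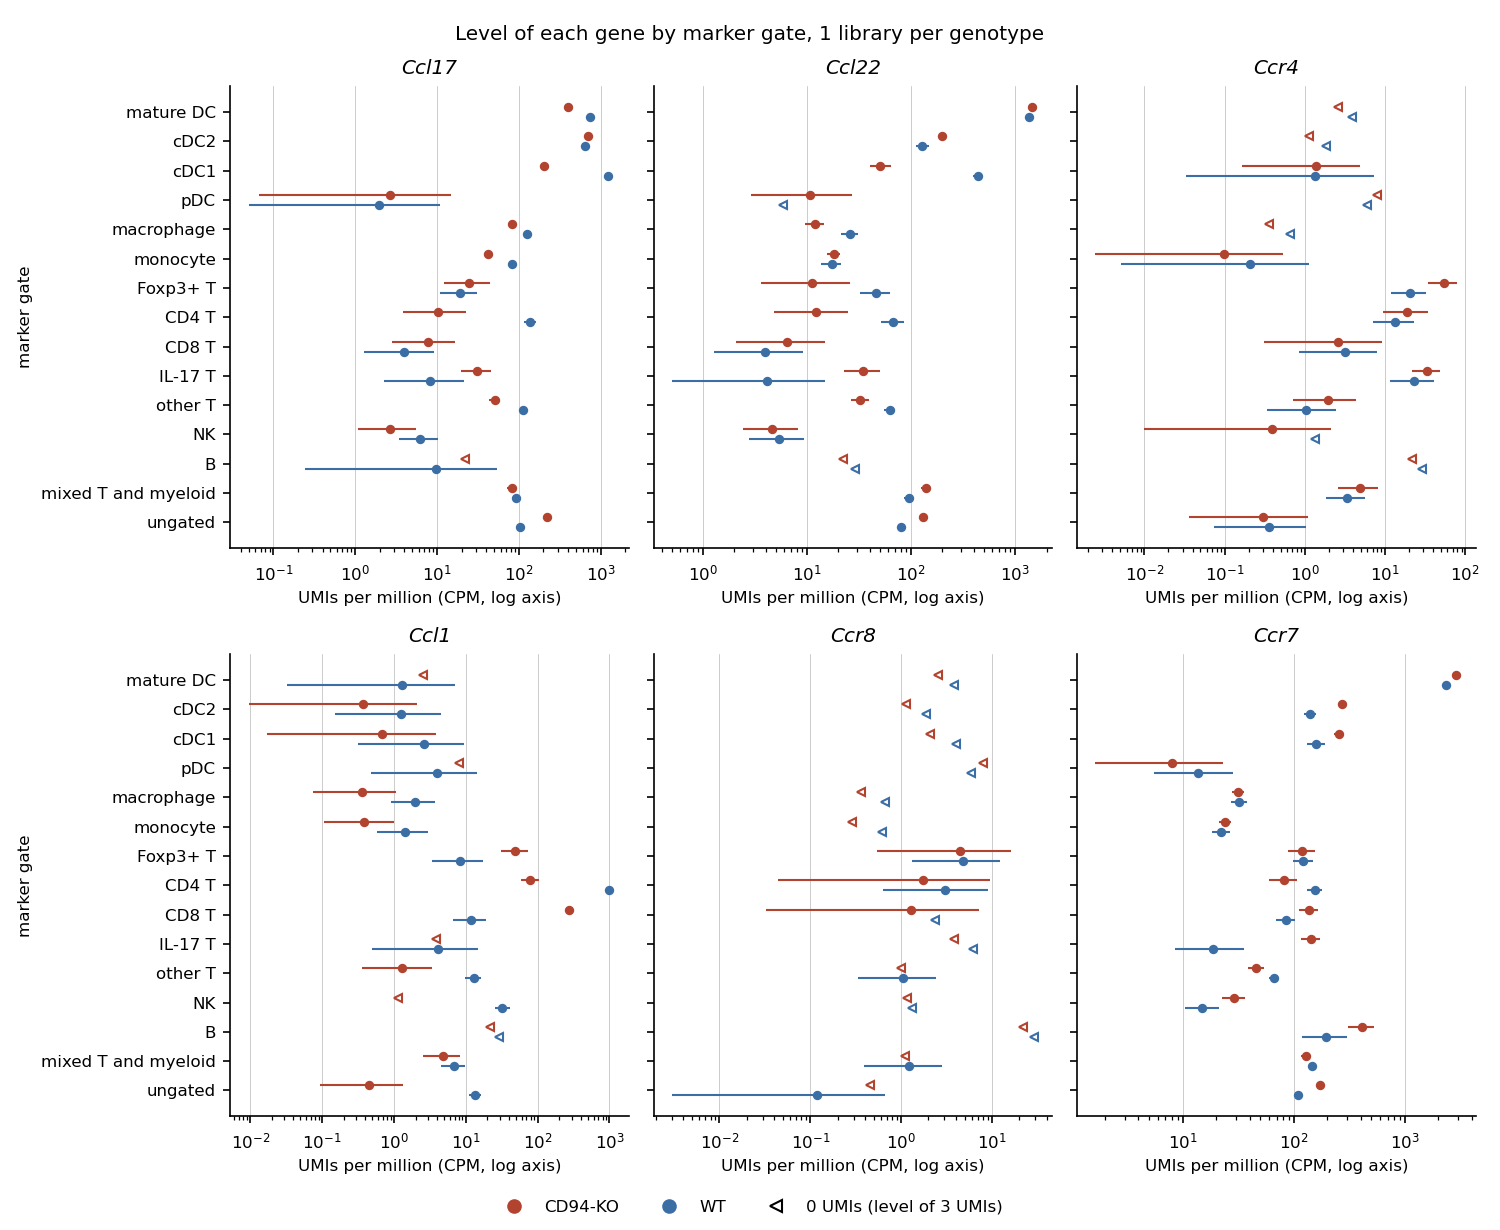
Level of each member in CPM (log axis) by gate with all cells of each gate, 1 panel per gene, CD94-KO and WT points with exact 95% Poisson intervals; open triangles stand for gates with 0 UMIs, placed at the level of 3 UMIs, and the neutrophil and ILC2 gates are not drawn. Ccl22 and Ccr7 peak in the mature DC gate in both libraries (1445 and 2873 CPM in CD94-KO, 1357 and 2368 in WT), Ccr4 in the T gates, and Ccl1 in CD8 T cells of CD94-KO (274 CPM) and CD4 T cells of WT (971 CPM).

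Ccl17, the first CCR4 ligand, had its highest levels in DC gates and was lower in the mature DCs of CD94-KO. That gate had 393 CPM in CD94-KO (358 to 431) and 735 in WT (676 to 798), a ratio of 0.535 (0.472 to 0.606), from 461 and 571 UMIs. Without the fibroblast-rich cells, which held none of these UMIs, it had 568 CPM (518 to 623) and 1377 (1267 to 1495), a ratio of 0.413 (0.364 to 0.467). In CD94-KO the cDC2 gate led with 709 CPM (677 to 741), above mature DCs with or without those cells, and cDC1 had 203. In WT the cDC1 gate had 1237 CPM (1159 to 1319), above the whole mature DC gate but overlapping with it once the fibroblast-rich cells were left out, and cDC2 had 651 (612 to 692). The cDC2 ratio was 1.09 (1.01 to 1.17), from 1890 and 1052 UMIs, but 0.992 with each cell weighed the same. The 3 DC gates together held 46.6% of all Ccl17 UMIs in each library but divided it differently: cDC2 held 33.3% in CD94-KO and 19.1% in WT, and cDC1 5.23% and 17.0%.

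Within these gates Ccl17 was concentrated in few cells. In mature DCs it was counted in 39 of 81 CD94-KO cells (48.1%) and 25 of 46 WT cells (54.3%), with a median of 0 and 1 UMI, an upper quartile of 3 and 16, and a highest cell of 125 and 114. Without the fibroblast-rich cells the shares were 52.0% and 62.5%. When each cell was thinned at random to 1000 UMIs, the shares of the whole gate were 19.8% and 34.8%. In cDC2 it was counted in 51 of 224 CD94-KO cells (22.8%) and 40 of 140 WT cells (28.6%), or 13.4% and 15.0% after thinning, and the 10 highest cells held 70.4% and 81.9% of the UMIs. In cDC1 18 of 101 and 18 of 56 cells had a UMI, and 10 cells held 95.6% and 98.1%, so the cDC1 level of each library rests on a handful of cells; the ratio there was 0.164 (0.144 to 0.187). The NK gate, which should lack the gene, had a UMI in 2.32% of CD94-KO and 6.45% of WT cells, at median depths of 6546.5 and 8142 UMIs, against 10991 and 11124.5 in mature DCs and 10958 and 11192 in cDC2.

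Ccl17 outside the DC gates differed in both directions. Macrophages had 83.4 CPM in CD94-KO and 126 in WT (ratio 0.662), although a single CD94-KO macrophage held 330 of 692 UMIs (47.7%); without the highest cell of each library the ratio was 0.498. Monocytes had 41.7 and 82.9 CPM (ratio 0.503), and ungated cells 223 and 102 (ratio 2.18). The ungated ratio turned to 0.799 with each cell weighed the same and was 1.36 without the fibroblast-rich cells; 10 cells held 72.2% of these CD94-KO UMIs, and a UMI was counted in 7.48% of CD94-KO and 10.5% of WT ungated cells. The CD4 T gate held 6 UMIs in CD94-KO and 135 in WT, a ratio of 0.0751 that was 0.981 with stricter gates and 0.560 without cells of 20 or more MHC class II UMIs, from 2 and 5 UMIs. T-gate cells with 20 or more MHC class II UMIs held 82.1% of the Ccl17 of all T gates in CD94-KO and 76.7% in WT, and cells that combine T and myeloid transcripts cannot be told apart from doublets here.

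Ccl22, the second CCR4 ligand and the neighbour of Ccl17, was led by the mature DC gate in both libraries. That gate had 1445 CPM in CD94-KO (1377 to 1515) and 1357 in WT (1276 to 1441), a ratio of 1.06 (0.985 to 1.15). The direction turned without the fibroblast-rich cells, where it had 2085 and 2542 CPM, a ratio of 0.820 (0.759 to 0.886), or 0.941 with each cell weighed the same. A UMI was counted in 71 of 81 CD94-KO cells (87.7%) and 36 of 46 WT cells (78.3%), or in 92.0% and 90.0% without the fibroblast-rich cells. The remaining mature DCs carried a median of 16 UMIs in CD94-KO and 18.5 in WT, with quartiles of 3 to 30.5 and 5 to 37.25 and a highest cell of 131 and 136, so the cells of both libraries overlapped widely. This small gate held 42.5% of all Ccl22 molecules in CD94-KO and 32.1% in WT.

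In cDC2, Ccl22 was at 199 CPM in CD94-KO (183 to 217) and 128 in WT (111 to 147), 1.56 times as high (1.32 to 1.84). The ratio fell under 1.5 with stricter gates (1.26), with each cell weighed the same (1.31), with all deposited barcodes (1.47) and without the fibroblast-rich cells (1.48). It was counted in 53 CD94-KO cells (23.7%) and 24 WT cells (17.1%), but in 6.25% and 6.02% after thinning, and 1 cell held 29.3% and 30.4% of the gate's UMIs. In cDC1 it was at 50.6 and 437 CPM (ratio 0.116, 0.0889 to 0.15); a single WT cell held 208 UMIs, 63.0% of that gate, and without the highest cell of each library the ratio was 0.241. Macrophages had 11.8 and 25.6 CPM, monocytes 18.0 and 17.2, and the NK gate 4.63 and 5.31 CPM, with a UMI in 3.64% and 5.53% of NK cells. The Treg gate held 5 UMIs in CD94-KO and 38 in WT, and 35 of the WT molecules were in 1 cell.

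**Figure D2:**
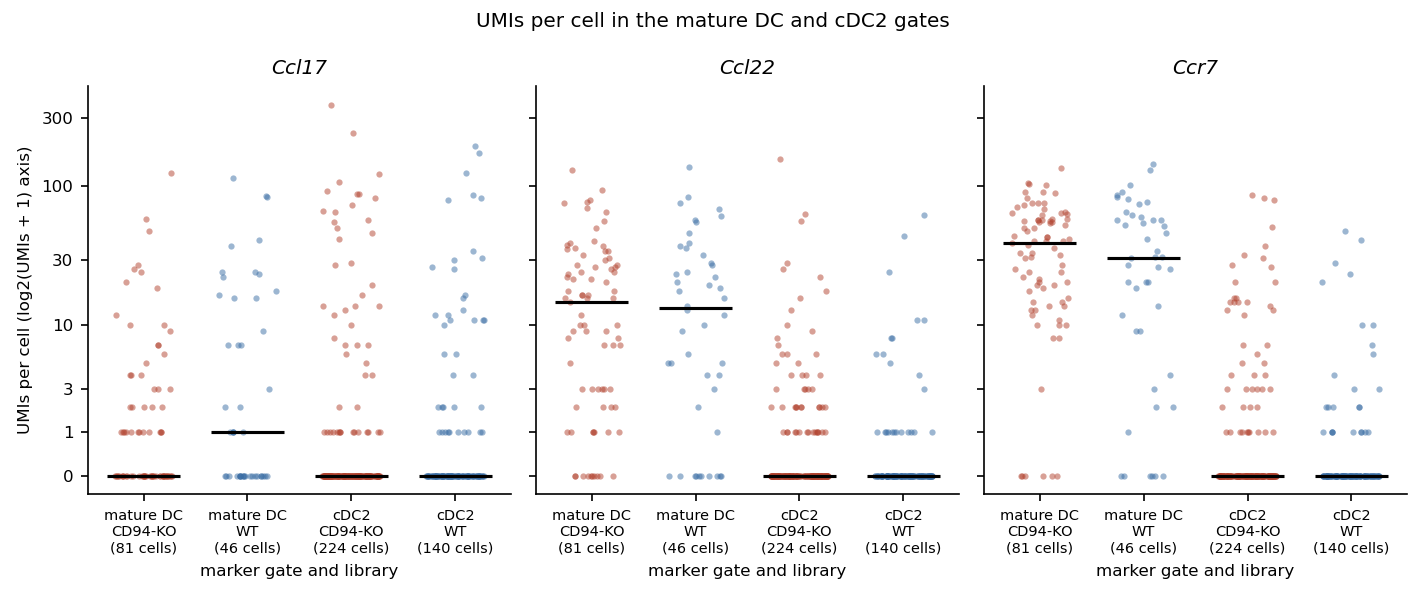
UMIs of Ccl17, Ccl22 and Ccr7 (log2(UMIs + 1) axis) in each cell of the mature DC and cDC2 gates, CD94-KO left of WT, each point 1 cell and each bar the median. Medians in mature DCs were 0 and 1 for Ccl17, 15 and 13.5 for Ccl22, and 40 and 31.5 for Ccr7, and most cDC2 cells had none of the 3.

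The ligands parted between the DC gates. Since a transcript gives UMIs near its 3′ end whatever its length, their UMIs were compared cell by cell without scaling to length; capture may still differ between the genes. Among mature DCs with 5 or more UMIs of both ligands summed, Ccl22 exceeded Ccl17 in 50 of 57 CD94-KO cells and 26 of 32 WT cells. Among such cDC2 cells, Ccl17 exceeded Ccl22 in 29 of 36 and 20 of 25. In cDC1, Ccl17 exceeded Ccl22 in 9 of 13 and 10 of 13. The same order of the ligands thus held in both libraries within each of these 3 gates. In mature DCs nearly every cell with Ccl17 also had Ccl22, 37 of 39 in CD94-KO and 24 of 25 in WT.

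**Figure D3:**
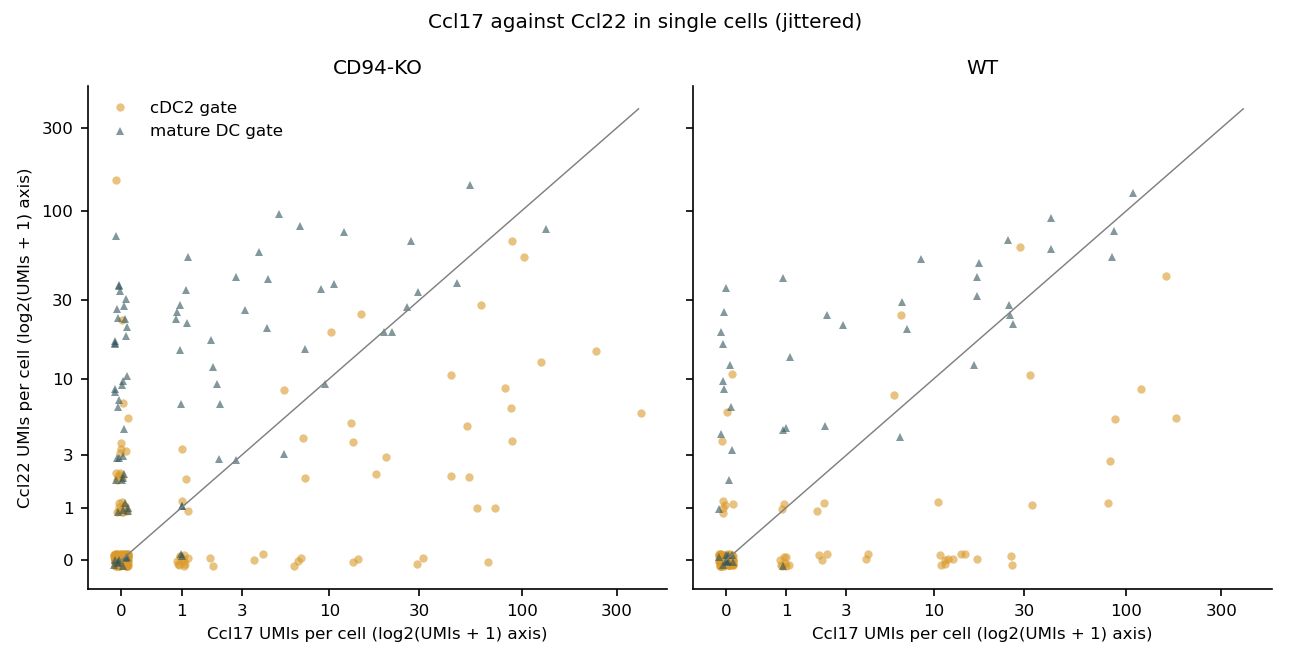
Ccl17 (x axis) against Ccl22 (y axis) UMIs in each cell of the mature DC and cDC2 gates, on log2(UMIs + 1) axes with a small random shift, CD94-KO in the left panel and WT in the right one, with the diagonal marking equal counts. Mature DCs lie mostly on the Ccl22 side (50 of 57 and 26 of 32 cells with 5 or more ligand UMIs) and cDC2 cells on the Ccl17 side (29 of 36 and 20 of 25).

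Ccr7, the homing receptor of mature DCs, was led by the mature DC gate in both libraries. That gate had 2873 CPM in CD94-KO (2777 to 2972) and 2368 in WT (2261 to 2479), a ratio of 1.21 (1.15 to 1.28). Without the fibroblast-rich cells, which held 0 Ccr7 UMIs, it had 4152 CPM (4012 to 4294) and 4438 (4238 to 4646), so the ratio turned to 0.935 (0.883 to 0.991), and with each of these cells weighed the same it was 1.06. Ccr7 was counted in every one of the 75 CD94-KO and 40 WT cells that remained, the 6 and 4 without Ccl22 included. They held a median of 41 UMIs in CD94-KO and 39 in WT, with quartiles of 20.5 to 61 and 20.5 to 63.75 and a highest cell of 134 and 144. Which library had the higher Ccr7 level in mature DCs thus depended on which cells were taken.

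In cDC2, Ccr7 was at 271 CPM in CD94-KO and 140 in WT (ratio 1.93, 1.66 to 2.25), with a UMI in 49 cells (21.9%) and 26 cells (18.6%), or 11.6% and 7.52% after thinning. The highest cDC2 cell had 87 and 49 UMIs. In cDC1 it was at 255 and 160 CPM (ratio 1.59, 1.29 to 1.97), with 163 of 372 CD94-KO and 85 of 121 WT UMIs in 1 cell each; without them the ratio was 2.97, and with stricter gates the ratio of the whole gate was 1.46. Of the other gates with at least 20 cells, B cells of CD94-KO followed at 409 CPM with a UMI in 17 of 22 cells; the WT B gate had 9 cells, 6 with a UMI, at 193 CPM. The DC gates held 63.2% and 46.5% of all Ccr7 molecules. Over all retained cells Ccr7 was at 167 and 129 CPM (ratio 1.29, 1.25 to 1.34, or 1.14 without the 62 CD94-KO and 132 WT fibroblast-rich cells), Ccl22 at 94.3 and 89.9 (ratio 1.05, 1.001 to 1.10, or 0.987 with each cell weighed the same and 0.921 without the fibroblast-rich cells) and Ccl17 at 135 and 151 (ratio 0.894, 0.861 to 0.928).

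The differences were read against those of all genes of the same gate. In mature DCs 13.1% of 7074 genes with at least 20 UMIs over both libraries were 1.5-fold or more higher in CD94-KO and 17.9% were 1.5-fold or more lower. Of the 3 members measured there, 0 were higher and 1, Ccl17, was lower by that fold. Without the fibroblast-rich cells 16.3% of 4850 genes were higher and 8.37% lower, and the same held for the 3 members. In cDC2 10% of 8180 genes were higher and 7.62% lower, and 2 of 3 members, Ccl22 and Ccr7, were higher; for Ccl22 the call is lost under the alternatives given above. In cDC1 20.3% of 6973 genes were higher and 6.35% lower; there Ccr7 was higher and both ligands were lower. In macrophages, where 4.8% of genes were higher and 6.82% lower, both ligands were lower, Ccl17 narrowly (0.672 with median of ratios scaling), and Ccr7 (31.7 and 32.4 CPM) was neither. In monocytes, with 5.46% of genes higher and 6.18% lower, 1 of the 3 measured members, Ccl17, was lower and 0 were higher. A fold is a rule of size, and genes with few UMIs pass it by counting error more often than genes with many.

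The levels of the ligands and of Ccr7 were also set out by how many of the 7 maturation genes (the 6 above and Fscn1) a cell contained, among cells with MHC class II, few C1q and no CD3 transcripts. Ccl22 was at 24.8 CPM in CD94-KO and 31.6 in WT in cells with 0 such genes, at 58.0 and 114 with 1, at 178 and 79.3 with 2, at 90.7 and 265 with 3, and at 1865 and 2107 with 4 to 7. Ccr7 was at 32.6 and 33.1 CPM with 0 genes and at 3630 and 3549 with 4 to 7. Ccl17 was at 159 and 172 CPM with 0 genes, 275 and 518 with 1, 938 and 246 with 2, 150 and 119 with 3, and 505 and 1246 with 4 to 7, so its CPM was highest at 2 genes in CD94-KO and at 4 to 7 in WT. The share of cells with a Ccl17 UMI was 9.03% and 13.2% with 0 genes and 49.4% and 67.4% with 4 to 7. Fibroblast-rich cells lay in every bin of 1 or more genes in both libraries. Without them Ccl17 was at 1671 and 1246 CPM with 2 genes and 591 and 1558 with 4 to 7. Ccl22 without them was at 69.6 and 169 CPM with 1 gene, 312 and 401 with 2, 508 and 2207 with 3, and 2180 and 2635 with 4 to 7. The direction of Ccl22 with 2 genes thus turned, and its level rose from bin to bin in both libraries. The bin of 3 genes, 10 and 9 cells in all, kept 6 and 4.

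**Figure D4:**
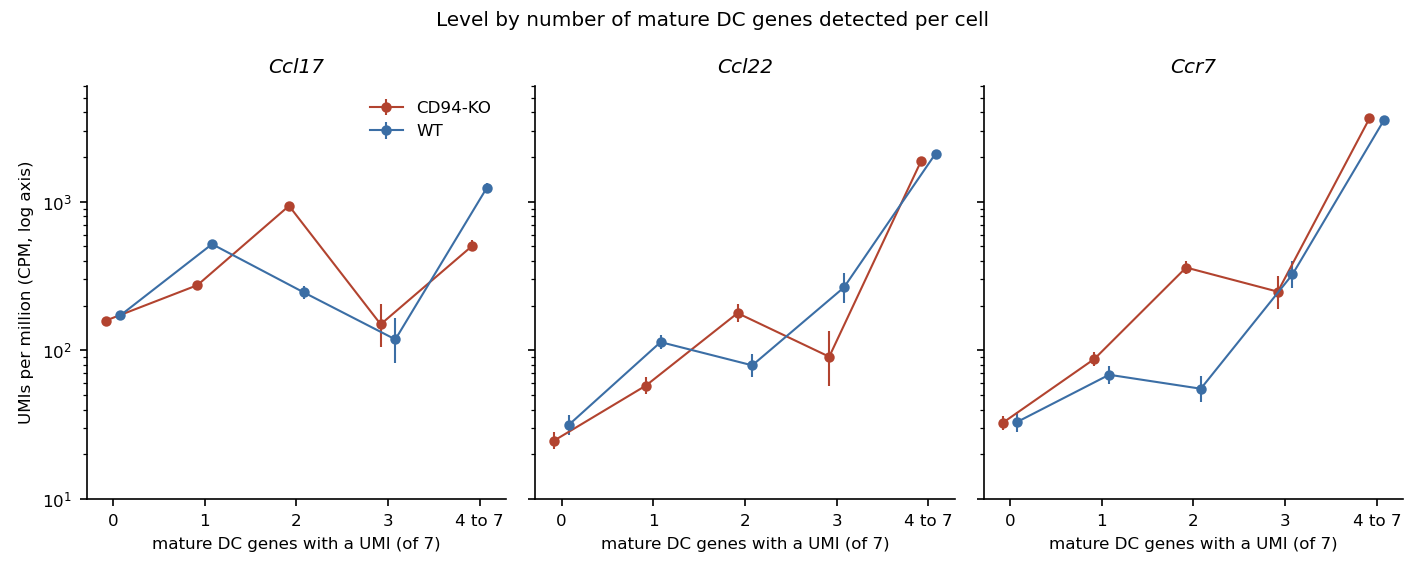
Level of Ccl17, Ccl22 and Ccr7 in CPM (log axis) by the number of 7 maturation genes detected in a cell, CD94-KO and WT, with exact 95% Poisson intervals. Ccl22 reaches 1865 and 2107 CPM and Ccr7 3630 and 3549 CPM in the bin of 4 to 7 genes, and Ccl17 stands at 505 and 1246 CPM there; all cells are drawn, and the bin of 3 genes holds 10 and 9 cells.

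Other genes of the mature DC programme, a list of 28 genes of which 27 were measured in the mature DC gate, mostly stayed within 1.5-fold once the fibroblast-rich cells were left out. With all cells, 11 were higher in CD94-KO by 1.5-fold and 0 lower, beside 13.1% and 17.9% of all genes of the gate. The median log2 ratio was 0.45 against -0.04 over all genes of the gate. Without those cells, 1 was higher and 0 lower, beside 16.3% and 8.37% of all genes, with a median of 0.16 against 0.06. Cd83, a surface marker of mature DCs, was at 680 and 417 CPM with all cells and at 983 and 779 without them. The 1 gene that stayed past the fold was Cd70, a costimulatory ligand, at 54.3 and 28.9 CPM from 44 and 12 UMIs, with an interval that reaches below 1 (0.973). In cDC2, 4 of 25 were higher (Il12b, Il15ra, Tnfrsf4 and Ebi3) and 1 lower (Ccl5, 232 and 428 CPM), with a median of 0.18 against 0.02. Of all genes in cDC2, 10% were higher and 7.62% lower by that fold.

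Among 15 genes known to induce Ccl17 or Ccl22, such as cytokine receptors and transcription factors, 2 were higher and 0 lower in the mature DC gate with all cells, Il13ra1 at 26.5 and 15.4 CPM and Irf4 at 19.6 and 12.9, and the intervals of both ratios (0.855 to 3.66 and 0.698 to 3.59) include 1. With all cells 13.1% of all genes of the gate were higher and 17.9% lower, and without the fibroblast-rich cells 16.3% and 8.37%. Without those cells 3 of the 15 were higher and 1 lower, counts near that background. Their median was 0.16 against 0.06 over all genes. The transcription factor gene Klf4 was at 265 CPM in CD94-KO and 79.6 in WT, Stat6, which carries IL-4 and IL-13 signals, at 94.9 and 62.7, and Tnfrsf1a, a TNF receptor gene, at 46.9 and 28.9. The interval of the ratio was 2.30 to 4.96 for Klf4, and those of Stat6 and Tnfrsf1a include 1. Csf2ra, a chain of the GM-CSF receptor, was lower at 81.4 and 157 CPM. In cDC2 Stat5a (48.0 and 28.5 CPM) and Batf3 (32.2 and 16.7) were higher and 0 lower, with a median of 0.15 against 0.02. Of all genes in cDC2, 10% were higher and 7.62% lower.

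Transcripts of other cells moved with these groups. In the mature DC gate all 6 fibroblast markers had UMIs and summed to 534 CPM in CD94-KO and 970 in WT; without the fibroblast-rich cells they summed to 6.17 and 14.5. Macrophage markers summed to 508 and 279 CPM with all cells and to 694 and 446 without them, and NK markers to 278 and 135, or 397 and 244. In cDC2 macrophage markers summed to 5664 and 4445 CPM and fibroblast markers to 6.75 and 74.9. In cDC1 fibroblast markers summed to 303 and 9.26 CPM, and 2 CD94-KO cells were rich in them. The part of macrophage and NK transcripts in the ligand and Ccr7 values was not tested.

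Ccr4, the receptor of CCL17 and CCL22, was a rare transcript of T cells, with 89 UMIs in the CD94-KO and 69 in the WT library. The T gates held 77.5% and 72.5% of them. All T gates together had 12.2 CPM in CD94-KO and 5.97 in WT, a ratio of 2.05 (1.40 to 3.01), from 69 and 50 UMIs. Almost all lay in T cells with a UMI of Tnfrsf9, Tnfrsf4 or Il2ra, genes induced by activation: 66 of 69 and 46 of 50. Such cells were 375 of 620 CD94-KO and 524 of 986 WT cells of the T gates. In the Treg gate they were 45 of 47 and 81 of 86 cells.

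The Treg gate had 53.6 CPM of Ccr4 in CD94-KO (34.4 to 79.8) and 20.4 in WT (11.9 to 32.7), a ratio of 2.62 (1.35 to 5.21). This rests on 24 UMIs in 11 of 47 CD94-KO cells (23.4%) and 17 UMIs in 11 of 86 WT cells (12.8%), at median depths of 6553 and 6659 UMIs. The share of cells at equal depth was not stable: it was 8.51% and 1.23% after thinning to 1000 UMIs and 8.70% and 9.21% after thinning to 2000, so a difference in the share of positive cells was not detectable. Without the highest cell of each library, with 7 and 5 UMIs, the ratio was 2.64 (1.19 to 6.06). The IL-17 T gate had 33.1 and 22.8 CPM, in 20 of 130 and 10 of 72 cells (ratio 1.45, 0.692 to 3.25). The CD4 conventional gate had 19.0 and 13.3 CPM (ratio 1.43, 0.58 to 3.46). Within each library the intervals of neighbours among these 3 gates overlapped, so their order is not fixed beyond counting error.

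Cells outside the T lineage had little Ccr4. Mature DCs, cDC2 and macrophages had 0 UMIs in both libraries, and for mature DCs the upper ends of the intervals were 3.15 CPM in CD94-KO and 4.75 in WT. The NK gate had 1 UMI in CD94-KO and 0 in WT. Among cells with CD3 transcripts, the CD8 gate had 2 and 4 UMIs. The mixed T and myeloid gate had 13 and 14, which were 14.6% and 20.3% of the Ccr4 UMIs of each library.

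In the Treg gate 13.5% of 6109 genes were 1.5-fold or more higher in CD94-KO and 11.9% lower; of the 5 members measured there, Ccr4 and Ccl1 were higher, Ccl22 was lower and Ccl17 and Ccr7 were neither. All 22 CD94-KO UMIs of Ccl1 lay in 1 cell, and 35 of 38 WT UMIs of Ccl22 in another; without the highest cell of each library the Ccl22 ratio turned to 2.49, from 4 and 3 UMIs, and with the wider Treg gate (cells with Cd4, Il2ra and Ikzf2 added) the Ccl1 ratio turned to 0.357. Of 21 measured genes of a Treg effector list, 5 were higher, 3 lower, with a median of 0.17 against 0.03 over all genes. Il2ra, the high-affinity IL-2 receptor chain, was at 592 and 346 CPM, Nt5e, which encodes CD73, at 156 and 80.5, and Itgae at 123 and 74.5. The inhibitory receptor gene Lag3 was lower at 49.2 and 130 CPM, as were the costimulatory receptor genes Tnfrsf4 at 1017 and 1535 and Tnfrsf18 at 610 and 940. Macrophage markers summed to 6683 and 3765 CPM in this gate and NK markers to 121 and 352; their part was not tested.

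Ccl1, the CCR8 ligand made by activated T cells, was lower in CD94-KO over all retained cells. The CD94-KO library had 328 UMIs (7.77 CPM) and the WT library 1276 (34.98 CPM). The ratio was 0.222 (0.196 to 0.251), or 0.137 without the highest cell of each library. T gates took 620 of 4574 CD94-KO cells and 986 of 4388 WT cells, so the share of T cells differed as well. All T gates together had 50.7 and 124 CPM of Ccl1, a ratio of 0.409 (0.358 to 0.467). A UMI was counted in 36 CD94-KO cells (0.787%) and 130 WT cells (2.96%), or in 0.235% and 1.17% after thinning. Over all retained cells 4.81% of 13589 genes were 1.5-fold or more higher in CD94-KO and 13.2% lower; 2 of the 6 members, Ccl1 and Ccr8, were lower, and 0 were higher. Mature DCs, which should lack Ccl1, had a UMI in 0 of 81 cells in CD94-KO and in 1 of 46 in WT. Macrophages had 1 UMI each in 3 of 676 CD94-KO cells (0.444%) and 9 of 326 WT cells (2.76%). Monocytes had 1 UMI each in 4 of 1047 (0.382%) and 7 of 493 (1.42%). The part of such single UMIs in the shares of all retained cells was not tested.

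The gate that held Ccl1 differed between libraries. The CD4 conventional gate had 46 UMIs in 7 of 69 CD94-KO cells and 951 in 22 of 97 WT cells, 79.3 and 971 CPM, a ratio of 0.0817 (0.0594 to 0.110); 1.45% and 14.7% of cells had a UMI after thinning to 1000 UMIs, and 7.58% and 15.7% after thinning to 2000. The highest cells had 17 and 299 UMIs, and without them the ratio was 0.0738. All of these molecules lay in activated cells of the gate, which were 63 of its 69 CD94-KO and 85 of its 97 WT cells. Of the 951 WT molecules 471 were in cells with 20 or more MHC class II UMIs; without such cells the gate had 45 and 480 UMIs and a ratio of 0.131. With the wider Treg gate, which takes such cells out of this one, the CD4 ratio was 0.0192, and with each cell weighed the same it was 0.134. The CD8 gate went the other way, with 214 UMIs in 5 of 69 CD94-KO cells and 15 in 5 of 110 WT cells. The ratio there was 23.3 (13.8 to 42.4), yet a single CD94-KO cell held 173 of the 214 (80.8%). That cell had 3 UMIs of Cd3e and 1 of Cd8a. Without the highest cell of each library 41 and 6 UMIs remained, a ratio of 11.2 (4.73 to 32.3).

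In the CD4 gate 12.6% of 6599 genes were 1.5-fold or more higher and 10.3% lower; of the 5 members measured there 0 were higher and 4 lower, all but Ccr4. For Ccl22 that rests on 1 WT cell with 52 of 65 UMIs; without the highest cells the ratio was 0.761, and without cells of 20 or more MHC class II UMIs it turned to 1.40, from 7 UMIs each. In the CD8 gate 11.2% of 7176 genes were higher and 9.8% lower, and both measured members, Ccl1 and Ccr7, were higher. The Treg gate had 22 Ccl1 UMIs in CD94-KO, all in 1 cell, and 7 in 4 WT cells. That CD94-KO cell had 1 Foxp3 UMI, 0 UMIs of Cd4 and Cd3e and 1 of Ncr1, an NK cell gene, so its gate is doubtful. It also had 86 UMIs of Xcl1, a gene that CD8-gate Ccl1 cells carried as well, with up to 233 UMIs. The NK gate had 0 UMIs in 302 CD94-KO cells, so that the share of cells with a UMI lies at or under 1.21%. In WT it had 73 UMIs in 6 of 217 cells, 68 of them in 1 cell. With CD94-KO set to the level of 3 counts the fold was 27.9, which rests largely on that WT cell and is not a lower bound. The CD94-KO interval reached 1.42 CPM, against 32.3 CPM in WT (25.3 to 40.6). The small ILC2 gate, innate lymphoid cells with Il1rl1, Gata3 and Il7r, had 17 UMIs in 3 of 6 CD94-KO cells and 2 in 1 of 4 WT cells.

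Most Ccl1 came from a few strongly positive cells. Cells with 5 or more UMIs numbered 12 in CD94-KO and 17 in WT and held 301 (91.8%) and 1145 (89.7%) of all Ccl1 molecules. In CD94-KO the highest cells had 173, 22, 17 and 15 UMIs. In WT they had 299, 164, 151, 132 and 113. Of these cells 4 and 9 were in the CD4 gate and 5 and 1 in the CD8 gate. In WT an ungated cell had 77 UMIs, with 0 of Cd3e, Tnfrsf9, Tnfrsf4 and Il2ra and 111 of Gzmb, and an NK-gate cell had 68. All T gates together had 10 of these cells among 620 in CD94-KO and 12 among 986 in WT. The lower Ccl1 level of CD94-KO T gates thus did not go with a smaller share of such cells. Tnfrsf9, the activation-induced receptor 4-1BB, was counted in 11 of the 12 and 16 of the 17, Il2ra in 12 and 13, Ifng in 8 and 12, and Csf2 in 2 and 6. Among T-gate cells, those with 5 or more Ccl1 UMIs had Tnfrsf9 at 703 and 698 CPM, against 274 and 328 in T cells with none, at median depths of 13354 and 12888.5 against 6597 and 5603 UMIs. Ccl1-positive cells were thus deeper as well as richer in Tnfrsf9 CPM.

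**Figure D5:**
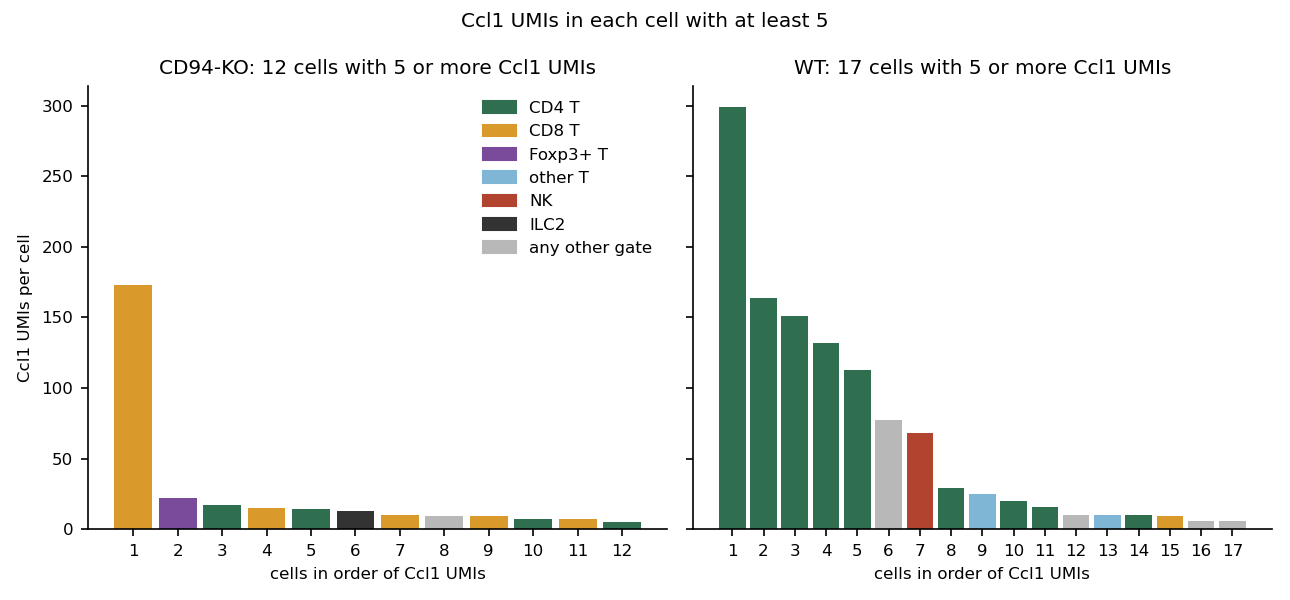
Ccl1 UMIs in each cell with 5 or more, ordered by count and coloured by gate, 12 CD94-KO cells left and 17 WT cells right. A single CD8-gate cell with 173 UMIs stands out in CD94-KO, while WT has 5 cells above 100 UMIs, the highest with 299.

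A list of genes for cytokines secreted on activation was read beside Ccl1. In the CD4 gate 3 of 14 measured genes were higher and 3 lower, beside 12.6% and 10.3% of all genes of the gate. The median log2 ratio was -0.23 against 0.03 over all genes. The chemokine genes Xcl1 (62.1 and 189 CPM), Ccl3 (102 and 270) and Ccl4 (141 and 443) were lower. The type 2 cytokine genes Il5 (25 UMIs in CD94-KO and 0 in WT) and Il13 (70.7 and 21.4 CPM) were higher, as was Tnfsf11 (302 and 186 CPM), and Ifng was at 483 and 566. In the CD8 gate 1 of 10 was higher, Xcl1 at 1050 and 292 CPM. Single Ccl1-positive CD94-KO cells held 233, 175 and 122 of that gate's 819 Xcl1 UMIs. In WT a Ccl1-positive cell of the gate held 51 of 373. The CD94-KO level of Xcl1 thus rests largely on a few cells, and the ratio without them was not tested. In the CD8 gate 4 were lower, Ccl3, Ccl4, Il2 and Ifng (124 and 388 CPM), with a median of -0.29 against 0.04. Macrophage markers summed to 6145 and 3581 CPM in the CD4 gate and to 2232 and 2769 in the CD8 gate; their part was not tested.

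Ccr8, the CCL1 receptor, was barely counted. There were 4 UMIs in 4 CD94-KO cells and 18 in 15 WT cells, a ratio of 0.192 (0.0473 to 0.583) over all retained cells. In CD94-KO 2 of the 4 cells were in the Treg gate, and the CD4 and CD8 gates had 1 each. In WT 4 were in the Treg gate, 3 in the CD4 gate, 4 in the gate of other T cells, 3 in the mixed T and myeloid gate and 1 was ungated. Foxp3 was counted in 2 of the 4 and 9 of the 15, Tnfrsf9 in all 4 and all 15, and Ccr4 in 1 and 3. Within the Treg gate the level was 4.47 CPM in CD94-KO and 4.81 in WT (ratio 0.93, 0.084 to 6.49), from 2 of 47 and 4 of 86 cells, so a difference per cell was not detectable at this depth.

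In T cells Ccr7 showed no single direction. All T gates together had 81.4 CPM in CD94-KO and 82.3 in WT, a ratio of 0.989 (0.877 to 1.11). The Treg gate had 118 and 121 CPM (ratio 0.976, 0.686 to 1.37), in 8 of 47 and 17 of 86 cells, and its direction turned with stricter gates (1.30) and with the wider Treg gate (1.10). The CD4 gate had 81.0 and 154 CPM (ratio 0.526, 0.371 to 0.734), in 9 of 69 and 21 of 97 cells, or 4.35% and 10.5% after thinning, and with the wider Treg gate the ratio was 0.287. The CD8 gate had 137 and 84.6 CPM (ratio 1.62, 1.23 to 2.14), in 12 of 69 and 21 of 110 cells, or 8.70% and 9.62% after thinning to 1000 UMIs and 15.4% and 13.7% after thinning to 2000, so the direction of the thinned shares was not fixed; with stricter gates the ratio was 2.44. The NK gate had a UMI in 12.3% and 8.76% of cells, close to the 13.0% of CD94-KO cells in the CD4 gate, and a share near that of NK cells is not read here as expression. The IL-17 T gate had 112 UMIs in CD94-KO and 9 in WT, of which a single CD94-KO cell held 81 and cells with 20 or more MHC class II UMIs held 105. In that gate 16.4% of genes were 1.5-fold or more higher and 10.6% lower. Of the 4 measured members 3 were higher, Ccl17, Ccl22 and Ccr7, which had their highest levels in DC gates. Among cells under 20 MHC class II UMIs the Ccr7 ratio turned to 0.864, from 7 and 5 UMIs, and those of Ccl17 and Ccl22 were 1.39 and 2.16. In the NK gate 11.5% of genes were higher and 5.21% lower; there Ccr7 was higher (28.9 and 15.1 CPM), and Ccl17 (7 and 14 UMIs) and Ccl1 were lower.

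Other genes of naive and central memory T cells were read against the same gates, in which 12.6% (CD4) and 11.2% (CD8) of all genes were higher and 10.3% and 9.8% lower. In the CD4 gate 1 of 12 measured was higher, the egress receptor gene S1pr1 at 67.2 and 29.6 CPM, and 2 were lower, Bach2 at 8.62 and 22.5 and Ccr9 at 0 and 24.5, with a median of 0.12. In the CD8 gate 2 of 13 were higher, among them S1pr1, and 1 was lower, Dapl1 at 7.69 and 13.3 CPM, with a median of -0.13. In the Treg gate 2 of 9, Lef1 (31.3 and 20.4 CPM) and Klf2 (232 and 141), were higher and 0 lower, beside 13.5% and 11.9% of all genes there. Of the ligands of CCR7, Ccl19 had 0 UMIs in CD94-KO and 1 in WT, and Ccl21a-c had 0.

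Of 8 further genes listed beside these axes, 2 were measured over all retained cells. They were Ccl8, a CCR8 ligand in mice, and Ccrl2, a receptor without known signalling of its own. Both were higher, where 4.81% of all genes were higher and 13.2% lower. The decoy receptor genes Ackr2 and Ackr4 had 1 UMI each in CD94-KO and 0 in WT. Ccl8 had 32.7 CPM in CD94-KO and 10.9 in WT (ratio 2.99), and in macrophages 95.1 and 27.1 CPM, opposite in direction to Ccl1. Ccrl2 was at 195 and 119 CPM over all cells (ratio 1.64) and at 73.4 and 37.3 CPM in mature DCs, or 104 and 67.5 without the fibroblast-rich cells; all 10 and 12 Ccl8 UMIs of the mature DC gate were in those cells. Of 17 other chemokine receptor genes, 7 were measured in mature DCs. There 3 (Ccr1, Ccr2 and Cxcr4) were higher and 1 lower (Ackr3), beside 13.1% and 17.9% of all genes. Without the fibroblast-rich cells 2 of 6 (Ccr1 and Cxcr4) were higher and Ackr3 had 0 UMIs, beside 16.3% of all genes higher and 8.37% lower. In the CD4 gate 4 of 9 were higher, among them Cxcr3 at 34.5 and 14.3 CPM and Gpr183 at 260 and 139 CPM. In that gate 1 was lower, Ccr9 at 0 and 24.5 CPM, and 12.6% of all genes were higher and 10.3% lower.

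Across gates and libraries, the genes whose level followed each member most closely were named by Pearson correlation of log2(CPM + 5) over 34 points, each a gate in 1 library with all its cells, that share depth and library. These are descriptions without a test. For Ccl17 they were Pvrl1 (0.90), Tmem198b (0.89) and Atox1 (0.87), with Ccl22 at 0.89 and Ccr7 at 0.60. For Ccl22 they were Adgrg6 (0.89), Batf3 (0.88) and Tbc1d4 (0.87). For Ccr7 they were Fam60a (0.84), Slc4a8 (0.80) and Ift140 (0.79). Ccr4 ran with Sytl1 (0.87), Tox (0.87) and Mier1 (0.86), and Ccl1 with Inpp4b (0.82), Ubash3a (0.78) and Ccdc184 (0.75). Ccr8, with 4 UMIs in CD94-KO and 18 in WT, ran with Izumo1r (0.96), the folate receptor 4 gene of regulatory T cells, Sdf4 (0.86) and Neb (0.84).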

How the data were processed

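The deposited files were gene by barcode tables of raw UMI counts, which per the file headers the authors made with Cell Ranger 5.0.0; non-cell barcodes had been removed and chemistry was v2, per the labels' protocols. The build mm10 and Seurat 4.0 appear in the submitters' processing notes without a role; the annotation release is not given in the sources used here. Cells were kept when they had 500 or more UMIs and 300 or more genes and less than 10% of their UMIs were mitochondrial. Scrublet's automatic threshold marked 0 CD94-KO cells and 1 WT cell (0.022%), too few to have worked, so the cells with the top 4% of doublet scores in each library were removed (191 CD94-KO and 183 WT). Both tables held counts for 27998 genes, and rows of 1 symbol were summed.

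Cells entered the first matching gate by raw UMIs of marker genes, and UMIs were summed by gate and library and divided by the gate total (CPM). Shares were recomputed after thinning each cell to 1000 UMIs, leaving out shallower cells; each share is 1 random draw. Cells with 5 or more UMIs of 6 fibroblast markers were left out as an alternative chosen after seeing the data. A gene with 0 UMIs was set to 3 counts for a fold. Genes with at least 20 UMIs over both libraries gave the background, with 1.5-fold as the rule of size; medians use log2(CPM + 5). The named genes were the members, list genes past 1.5-fold or with most UMIs and the 3 closest genes for each member. The members and lists were chosen with earlier results of these data known. The fold and thinning steps were checked on simulated counts. Gene positions are from GENCODE M21 (GRCm38), promoters from RefSeq (GRCm38.p6; 5 of 6 members matched, Ccr7 not). Tools were Python 3.11.15, numpy 2.4.6, pandas 2.3.3, scipy 1.17.1, matplotlib 3.10.9, scanpy 1.11.5, R 4.3.3 and edgeR 4.0.16 (TMM scaling only). The 12 alternatives changed filters, gates, scaling and weights, and their effect is given in the closing section. No test was possible with 1 library for each genotype.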

Additional observations from a re-analysis of the deposited data

Results flagged for a closer look

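Some members differed between the libraries in opposite directions in related gates. The ratio of CD94-KO to WT was 1.56 for Ccl22 in cDC2 and 0.116 in cDC1, where 1 WT cell held 63.0% of the molecules. For Ccl1 it was 5.84 in the Treg gate, where all 22 CD94-KO molecules lay in 1 cell, 0.0817 in the CD4 conventional T gate and 23.3 in the CD8 T gate, where 1 CD94-KO cell held 80.8%. For Ccr7 it was 0.526 in the CD4 conventional T gate and 1.62 in the CD8 T gate. These differences between gates were not tested, since each genotype has 1 library.

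Barcodes left out by the cell filters and the doublet step also carried the members. The 601 left-out CD94-KO barcodes held 358 UMIs of Ccl17, 376 of Ccl22, 10 of Ccr4, 38 of Ccl1 and 437 of Ccr7. The 970 left-out WT barcodes held 648 of Ccl17, 231 of Ccl22, 10 of Ccr4, 34 of Ccl1 and 392 of Ccr7. Ccr8 had 0 in both.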

How the results depend on the processing

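Of the ratios of CD94-KO to WT past 1.5-fold whose interval excluded 1, some turned round. With stricter gates Ccl22 turned to 3.39 in the Treg gate and 1.72 in the CD4 gate, and Ccr7 to 0.518 in the IL-17 T gate. With the wider Treg gate Ccl1 in it turned to 0.357. With each cell weighed the same Ccl17 in ungated cells turned to 0.799. Other ratios moved beyond their counting interval, and the cause was not tested. No paired analysis was possible because each genotype has 1 library. With stricter gates the mature DC ratios were 0.406 for Ccl17, 0.897 for Ccl22 and 1.02 for Ccr7, and the cDC2 ratios 1.26 for both Ccl17 and Ccl22. With each cell weighed the same they were 1.13 for Ccr7 in mature DCs, 0.992 for Ccl17 and 1.31 for Ccl22 in cDC2, 0.134 for Ccl1 in the CD4 gate, and, over all retained cells, 0.676 for Ccl17 and 0.987 for Ccl22. Scaling by the median of ratios gave 1.29 for Ccr7 in mature DCs, and 0.929 for Ccl17 and 1.35 for Ccr7 over all retained cells. Over all retained cells Ccl17 was at 0.859 with all deposited barcodes and 0.851 without doublet removal. The wider Treg gate put Ccl1 in the CD4 gate at 0.0192. The remaining 4 alternatives were chosen after seeing the data. Without cells of 5 or more fibroblast marker UMIs the mature DC ratios were 0.413 for Ccl17, 0.820 for Ccl22 and 0.935 for Ccr7, and over all retained cells 0.788 for Ccl17, 0.921 for Ccl22, 0.196 for Ccl1 and 1.14 for Ccr7. Without the MHC class II minimum Ccr7 in mature DCs was at 1.13 and Ccl22 in the Treg gate turned to 3.06. With T cells under 20 MHC class II UMIs Ccl1 in the CD4 gate was at 0.131, Ccl22 there turned to 1.40 and Ccr7 in the IL-17 T gate to 0.864. Without the cell with most UMIs Ccl1 was at 11.2 in the CD8 gate and 0.137 over all retained cells, and Ccl22 in the Treg gate turned to 2.49. Genes past 1.5-fold, in both directions, numbered 6485 in mature DCs, 5194 in cDC2, 5867 in the Treg gate and 5685 in the CD4 gate with no minimum above 1 UMI, and 466, 277, 220 and 236 with at least 100 UMIs, against 2196, 1443, 1551 and 1514 with at least 20. TMM scaling moved the median of all genes in cDC1 by -0.13 (log2) and the median of ratios moved that of neutrophils by 0.30. Depth limits Ccr4 and Ccr8, with at most 26 UMIs in any gate.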
